A study of Mus musculus with 36 samples.

Results

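The phagocyte NADPH oxidase and the enzymes that handle its products were followed across tumour-associated macrophages (TAMs) and CD8 T cells. The 9 genes are *Cybb*, *Cyba*, *Ncf1*, *Ncf4* and *Rac2* for the oxidase, and *Sod2*, *Txnrd1*, *Gpx1* and *Prdx1* for antioxidant defence. They were taken by gene name from a table of 24781 genes, of which 9188 had no molecule in any library, and all 9 members were found and tested.

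The oxidase moves electrons from cytosolic NADPH across a membrane to oxygen and so makes superoxide. *Cybb* encodes the catalytic gp91phox and *Cyba* its partner p22phox, which sit together in the membrane. *Ncf1* (p47phox) and *Ncf4* (p40phox) encode cytosolic subunits that join them on activation, together with a Rac GTPase such as the *Rac2* product. Superoxide is turned into hydrogen peroxide by dismutases such as the mitochondrial enzyme encoded by *Sod2*. Peroxide is reduced with glutathione by the *Gpx1* product and with thioredoxin by peroxiredoxins such as the *Prdx1* product, and the *Txnrd1* product recharges cytosolic thioredoxin with NADPH. Macrophages and neutrophils are the best-known users of this oxidase.

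Mice bore intradermal MC38 tumours, from a mouse colon adenocarcinoma line, and tumours were taken 7 days after inoculation. From these tumours, 100 cells per library were sorted as TAMs (CD45+CD11b+F4/80 high) or CD8 T cells (CD45+TCRβ+CD8+). Each library is a count of distinct polyA RNA molecules (digital RNA-seq), and there were 6 libraries per cell type in each of 3 groups, 36 in all. The groups were WT mice, *muMt*-/- mice, which lack mature B cells because the IgM heavy chain gene is disrupted, and *muMt*-/- mice implanted with a pellet that releases γ-aminobutyric acid (GABA). The sample labels list no treatment for the first 2 groups, while the study's methods describe a placebo pellet, and untreated here means without GABA. Adults of both sexes were used across the study. The study's reporting summary lists *muMt*-/- mice as C57BL/6J and WT mice as of either the C57BL/6J or the C57BL/6N substrain, so that substrain cannot be told apart from genotype here. The age and sex of each mouse were not analysed here, nor was *Ighm*.

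The CD8 T cell libraries held far fewer molecules than the TAM libraries, and depth also differed between groups. Molecules per library (lowest, median, highest) were 206394, 242756 and 304100 in TAMs of WT mice, 100254, 149960 and 253608 in *muMt*-/- mice, and 151856, 192775 and 262606 with GABA. In CD8 T cells they were 22896, 42065.5 and 76898 in WT mice, 51064, 67121.5 and 77839 in *muMt*-/- mice, and 65356, 80283 and 98015 with GABA. The WT group was thus the deepest among TAM libraries and the shallowest among CD8 T cell libraries.

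Marker genes fitted the labels in WT mice, while 3 CD8 T cell libraries of the other groups held more macrophage than T cell marker molecules. TAM libraries of WT mice held 177.5 ± 17.6 molecules per 10000 (mean ± SD) from 18 macrophage markers, all detected and led by *Apoe*, against 0.257 ± 0.168 from 12 CD8 T cell markers. CD8 T cell libraries of WT mice held 51.5 ± 12.5 per 10000 from the T cell markers, led by *Thy1*, and 6.77 ± 5.01 from the macrophage markers. *Adgre1*, *Mertk* and *Mrc1* had 0 molecules in CD8 T cells of WT mice, where a count of 0 over the group allows up to 0.114 per 10000. B cell markers summed to at most 0.109 per 10000 in any group, and *Cd79a*, *Pax5* and *Blk* had 0 molecules in all 36 libraries, WT mice included.

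TAMs carried the oxidase at far higher levels than CD8 T cells, and 1 subunit went the other way. *Cybb* and *Ncf1* were more than 20-fold higher in TAMs, *Cyba*, *Gpx1*, *Prdx1*, *Sod2* and *Ncf4* were higher by 2.34-fold to 3.81-fold, and *Rac2* was higher in CD8 T cells. *Txnrd1* did not differ between the 2 cell types by the test. Of the 9 members, 7 were called higher and 1 lower in TAMs at adjusted p under 0.05, against 16.7% (1414) and 6.0% (509) of the 8477 genes tested. Levels here are molecules of a gene per 10000 molecules in the library, and folds are ratios of group means on that scale. The share of all genes tested whose WT groups did not overlap was not counted. Overlap of the members is therefore given as a description only.

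*Cybb* stood at 7.88, 10.3 and 11.2 molecules per 10000 in TAMs of WT mice (lowest, median, highest) and at 0, 0.065 and 1.93 in CD8 T cells. The 6 CD8 T cell libraries held 12 *Cybb* molecules in all, 10 of them in replicate 5 and 0 in replicates 2, 3 and 4. A count of 0 in those 3 libraries allows up to 0.559 to 1.31 per 10000. The groups did not overlap, with a 25.3-fold higher mean and a log2 fold change of 4.75 ± 0.54 (standard error; edgeR quasi-likelihood test, Benjamini-Hochberg adjusted p = 4.0e-10). Without CD8 T cell replicate 5 of the WT mice the *Cybb* log2 fold change was 6.90.

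*Cyba*, whose protein also serves other NADPH oxidases, was present in every CD8 T cell library. Its level was 7.33, 8.70 and 9.60 per 10000 in TAMs and 0.437, 2.53 and 3.87 in CD8 T cells, without overlap. The mean was 3.60-fold higher in TAMs, with a log2 fold change of 2.11 (standard error 0.25, edgeR quasi-likelihood Benjamini-Hochberg adjusted p = 1.3e-09). In CD8 T cells of WT mice the mean *Cyba* level was 27.8% of that in TAMs, while the mean *Cybb* level was 3.96%.

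The cytosolic subunits split. *Ncf1* stood at 2.22, 2.69 and 2.96 per 10000 in TAMs, and CD8 T cells of WT mice held 4 molecules in all, 3 in replicate 5 and 1 in replicate 6. The 2 groups did not overlap for *Ncf1*, at a 22.4-fold higher mean and a log2 fold change of 4.35 (standard error 0.53, edgeR quasi-likelihood Benjamini-Hochberg adjusted p = 1.9e-09). Leaving out CD8 T cell replicate 5 gave 5.84 for *Ncf1*. *Ncf4* stood at 1.03, 1.24 and 1.73 per 10000 in TAMs, against 0, 0.352 and 1.55 in CD8 T cells. Its groups overlapped, since CD8 T cell replicate 5 lay inside the TAM range, and the log2 fold change was 1.39 (standard error 0.40, edgeR quasi-likelihood Benjamini-Hochberg adjusted p = 0.0071). The *Ncf4* value moved to 2.07 without CD8 T cell replicate 5 of the WT mice, and without replicate 6 it was 1.07 and the call ended (edgeR quasi-likelihood Benjamini-Hochberg adjusted p = 0.0571).

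*Rac2*, which encodes a GTPase that can complete the active oxidase and also serves actin remodelling in lymphocytes, had the reverse order. It stood at 1.82, 2.34 and 2.49 per 10000 in TAMs and at 5.22, 6.58 and 11.2 in CD8 T cells. Every CD8 T cell library of the WT mice exceeded every TAM library for *Rac2*, and the CD8 T cell mean was 334% of the TAM mean. The log2 fold change of *Rac2* was −1.39 (standard error 0.22, edgeR quasi-likelihood Benjamini-Hochberg adjusted p = 7.9e-07).

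Among the antioxidant enzymes, *Gpx1* differed most between the cell types. *Gpx1* stood at 6.97, 7.80 and 8.58 per 10000 in TAMs and at 1.31, 2.27 and 2.51 in CD8 T cells. *Prdx1* stood at 6.42, 7.44 and 9.34 against 0.791, 3.43 and 4.25. *Sod2* stood at 1.20, 1.54 and 1.62 against 0.260, 0.571 and 0.966. None of these 3 genes overlapped between the 2 groups. The log2 fold changes were 2.22 for *Gpx1* (standard error 0.28, edgeR quasi-likelihood Benjamini-Hochberg adjusted p = 6.0e-09), 1.63 for *Prdx1* (0.29, 9.7e-06) and 1.68 for *Sod2* (0.38, 0.0006).

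*Txnrd1* was the member that did not separate the cell types. It stood at 0.954, 1.32 and 1.78 per 10000 in TAMs and at 0.910, 1.26 and 2.71 in CD8 T cells, with 3 of 6 TAM libraries above the CD8 T cell median. On the log2 scale the difference was 0.18 with a 95% interval from −0.42 to 0.79 (edgeR quasi-likelihood Benjamini-Hochberg adjusted p = 0.731). Its direction depended on the scaling, as the difference was 0.01 with DESeq2 size factors and the mean per 10000 in TAMs was 0.866 times that in CD8 T cells.

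The fold changes carry the scaling of 2 unlike cell types. The median log2 fold change over all 8477 genes was 0.355 with edgeR TMM scaling and 0.199 with DESeq2 size factors. Relative to that median, with TMM and with DESeq2 factors, *Cybb* was at 4.39 and 4.39, *Cyba* at 1.75 and 1.74, and *Ncf1* at 3.99 and 4.0. *Ncf4* was at 1.04 and 1.04, and *Rac2* at −1.74 and −1.77. The antioxidant genes were at 1.87 and 1.86 for *Gpx1*, 1.27 and 1.26 for *Prdx1*, 1.33 and 1.32 for *Sod2*, and −0.17 and −0.18 for *Txnrd1*. By the DESeq2 Wald test the calls over all genes divided into 1017 higher and 649 lower in TAMs, and the same 8 members were called.

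**Figure D1:**
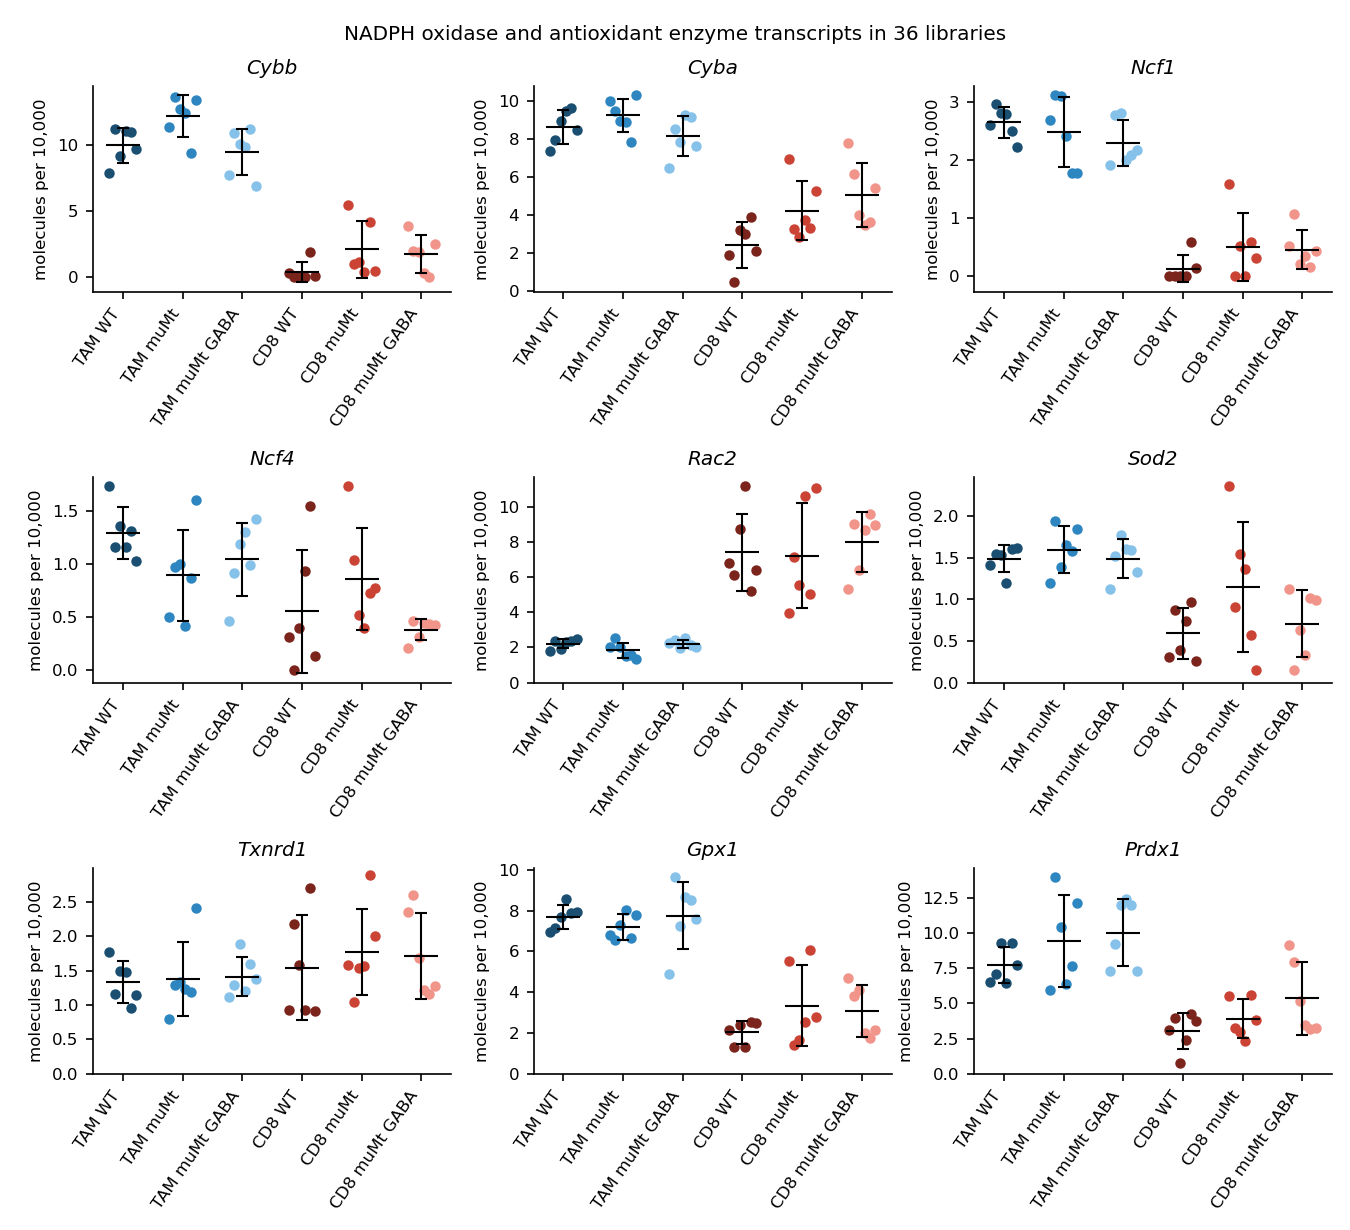
Molecules of each of the 9 genes per 10000 molecules in each library, 1 point per library, for TAMs and CD8 T cells of WT, *muMt*-/- and GABA-treated *muMt*-/- mice (6 libraries per group). *Cybb* separated the cell types with medians of 10.3 and 0.065 in WT mice, while *Rac2* was higher in CD8 T cells, at 6.58 against 2.34.

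For most members all 3 TAM groups came before all 3 CD8 T cell groups, on the scale of molecules per 10000. Mean *Cybb* levels ran from TAMs of *muMt*-/- mice (12.2 ± 1.59), WT mice (9.99 ± 1.33) and GABA-treated mice (9.46 ± 1.73) down to CD8 T cells of *muMt*-/- mice (2.12 ± 2.17), GABA-treated mice (1.77 ± 1.44) and WT mice (0.395 ± 0.763). The only neighbours in that order whose libraries did not overlap were GABA-treated TAMs and CD8 T cells of *muMt*-/- mice. *Ncf1* and *Gpx1* likewise had 1 gap, between the lowest TAM group and the highest CD8 T cell group. For *Rac2* the gap lay between CD8 T cells of *muMt*-/- mice (7.22 ± 2.98) and GABA-treated TAMs (2.22 ± 0.225).

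No gap of this kind separated neighbours for the other 5 genes. Mean *Cyba* ran in steps of overlapping groups from 9.23 ± 0.877 in TAMs of *muMt*-/- mice to 2.40 ± 1.21 in CD8 T cells of WT mice, with GABA-treated CD8 T cells highest in their cell type at 5.05 ± 1.69. *Prdx1* ran from 10.1 ± 2.41 in GABA-treated TAMs to 3.04 ± 1.28 in CD8 T cells of WT mice. *Ncf4* ranged from 1.29 ± 0.246 in TAMs of WT mice to 0.380 ± 0.101 in GABA-treated CD8 T cells, and *Sod2* from 1.60 ± 0.279 in TAMs of *muMt*-/- mice to 0.592 ± 0.307 in CD8 T cells of WT mice. *Txnrd1* had the reverse order, from 1.77 ± 0.627 in CD8 T cells of *muMt*-/- mice to 1.33 ± 0.300 in TAMs of WT mice, and all 6 of its groups overlapped.

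No member changed in TAMs between *muMt*-/- and WT mice by the adjusted test, and the largest upward differences were in *Cybb* and *Prdx1*. The edgeR quasi-likelihood test with Benjamini-Hochberg adjustment called 0 of 9 members, against 2.06% (195) of the 9469 genes tested in TAMs. Before adjustment, 1 member, *Cybb*, had p under 0.05, against 14.8% (1406) of genes, and none did with depth as a covariate. That count ran from 0 to 2 members as single libraries were left out, and was 0 in 4 of 12 such fits. The DESeq2 Wald test also called 0 members after adjustment, beside 192 of 9469 genes, and 1 before it, beside 1111 genes. Values in the following comparisons are normalized numbers of molecules, scaled within 1 cell type.

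*Cybb* stood at 148, 189.6 and 213 in WT TAMs and at 186, 249 and 263 in TAMs of *muMt*-/- mice. In *muMt*-/- mice, 5 of 6 libraries exceeded every WT library, and replicate 5 lay inside the WT range. The log2 fold change of *Cybb* was 0.31 with a 95% interval from 0.02 to 0.61 (unadjusted p = 0.0373, edgeR quasi-likelihood Benjamini-Hochberg adjusted p = 0.296). Its membrane partner *Cyba* stood at 137, 161 and 183 in WT mice and at 156, 181 and 199 in *muMt*-/- mice, with 5 of 6 libraries above the WT median and a log2 fold change of 0.12 (standard error 0.13).

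*Ncf4* and *Rac2* had differences of the opposite sign, though neither reached unadjusted p under 0.05. *Ncf4* stood at 18.9, 23.6 and 32.4 in WT mice and at 8.37, 17.9 and 31.1 in *muMt*-/- mice, where 4 of 6 libraries lay below every WT library. Its log2 fold change was −0.48 (standard error 0.24, unadjusted p = 0.0559, edgeR quasi-likelihood Benjamini-Hochberg adjusted p = 0.354). *Rac2* stood at 34.1, 43.7 and 45.8 against 26.4, 34.5 and 48.5, with a log2 fold change of −0.24 (standard error 0.17). *Ncf1* was nearly level, at 40.7, 49.7 and 56.3 against 34.2, 49.8 and 59.9 and a log2 fold change of −0.06 (standard error 0.17). The groups overlapped for all 5 oxidase genes.

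*Prdx1* spread widely among TAMs of *muMt*-/- mice. It stood at 117, 139 and 178 in WT mice and at 113, 177 and 269 in *muMt*-/- mice, where 3 libraries lay above every WT library and 1 below. Its log2 fold change was 0.32 (standard error 0.18, unadjusted p = 0.088, edgeR quasi-likelihood Benjamini-Hochberg adjusted p = 0.422). *Sod2* stood at 21.8, 29.0 and 30.8 against 22.6, 32.4 and 37.3, with 4 of 6 libraries of *muMt*-/- mice above every WT library and a log2 fold change of 0.15 (standard error 0.18).

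*Txnrd1* and *Gpx1* lay close to their WT values. *Txnrd1* stood at 18.2, 24.5 and 33.3 in WT mice and at 15.1, 25.0 and 46.6 in *muMt*-/- mice, the highest value being replicate 6. *Gpx1* stood at 130.5, 144 and 156 against 126, 137 and 163. Their log2 fold changes were 0.09 (standard error 0.21) and −0.06 (0.14). Over the 9 members the median log2 fold change was 0.09, beside −0.05 over all genes tested.

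Markers and depth moved in the same comparison. *C1qb*, *C1qc* and *Lyz2* fell in TAMs of *muMt*-/- mice, while *Itgam*, *Ccr2*, *Fn1*, *Plac8*, *Cdh1* and the nuclear RNAs *Malat1* and *Neat1* rose. The 18 macrophage markers, all detected, summed to 177.5 ± 17.6 per 10000 in WT mice and 144.6 ± 13.8 in *muMt*-/- mice. The 8 monocyte markers, all detected and led by *Fn1*, summed to 28.6 ± 1.09 and 46.2 ± 6.10. Median depth was 242756 and 149960 molecules. What part these differences have in the member values was not tested, and in such bulk libraries fewer cells of a type and less RNA per cell cannot be told apart.

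In TAMs of GABA-treated mice *Cybb* lay near its WT level and below most values of untreated *muMt*-/- mice, though no member passed the adjusted test. Of the 9 members, 0 were called between GABA-treated and untreated *muMt*-/- mice by the edgeR quasi-likelihood test with Benjamini-Hochberg adjustment, against 0.0211% (2) of 9469 genes. Replicate 1 of the GABA-treated TAMs stood apart from the other 5, with 100.6 macrophage marker molecules per 10000 against 131 to 169, and without it 39 genes and still 0 members were called. At unadjusted p under 0.05 there was 1 member, *Cybb*, against 8.34% (790) of genes. The DESeq2 Wald test likewise called 0 members with adjustment, beside 7 of 9469 genes, and 1 without, beside 580 genes.

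*Cybb* stood at 129.6, 186 and 206 with GABA, against 186, 249 and 263 in untreated *muMt*-/- mice. All 6 GABA libraries lay below the median of the untreated group and 3 lay below every one of its libraries. The log2 fold change was −0.38 with a 95% interval from −0.68 to −0.09 (unadjusted p = 0.0126, edgeR quasi-likelihood Benjamini-Hochberg adjusted p = 0.414), and −0.34 without replicate 1 of the GABA-treated mice. *Cyba* followed the same pattern of libraries, at 130.1, 154 and 169 with GABA, all 6 below the untreated median of 181 and 3 below every untreated library. Its log2 fold change was −0.20 (standard error 0.13, edgeR quasi-likelihood Benjamini-Hochberg adjusted p = 0.740).

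Neither the cytosolic subunits nor *Rac2* changed under GABA by the adjusted test. *Ncf1* stood at 36.6, 39.6 and 52.8 with GABA, a log2 fold change of −0.13 (standard error 0.18) from untreated *muMt*-/- mice. *Ncf4* stood at 9.29, 20.2 and 26.6, a log2 fold change of 0.20 (standard error 0.25). *Rac2* stood at 37.4, 42.2 and 46.7, with all 6 GABA libraries above the untreated median of 34.5 and a log2 fold change of 0.25 (standard error 0.17). Every one of these groups overlapped the untreated group.

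The antioxidant enzymes did not change by the adjusted test either. With GABA *Prdx1* stood at 137, 197 and 228, and *Gpx1* at 98.2 (replicate 1), 149 and 183. *Sod2* stood at 22.6, 29.0 and 33.5, and *Txnrd1* at 22.0, 25.1 and 35.6. Against untreated *muMt*-/- mice their log2 fold changes were 0.06 for *Prdx1*, 0.09 for *Gpx1*, −0.13 for *Sod2* and 0.01 for *Txnrd1*. The median over the 9 members was 0.01, beside 0.05 over all genes.

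Against WT mice, GABA-treated *muMt*-/- mice had 0 of 9 members called (edgeR quasi-likelihood, Benjamini-Hochberg), against 0.0739% (7) of 9469 genes. The DESeq2 Wald test again gave 0 members with adjustment, beside 3 of 9469 genes, and 1 without, beside 440 genes. By edgeR *Prdx1* was the 1 member at unadjusted p under 0.05, against 7.01% (664) of genes. Leaving out 1 library at a time gave 0 members at that threshold in 7 of 12 fits and 1 in the others. With GABA, 5 of 6 *Prdx1* values lay above the WT median and 3 above every WT library. The *Prdx1* log2 fold change was 0.38 (standard error 0.18, unadjusted p = 0.042, edgeR quasi-likelihood Benjamini-Hochberg adjusted p = 0.703). The other members lay between −0.27 for *Ncf4* and 0.10 for *Txnrd1*, with *Cybb* at −0.07, and the 3 TAM comparisons share their groups of mice. Macrophage markers summed to 146.7 ± 26.1 per 10000 and monocyte markers to 36.4 ± 3.64 in GABA-treated TAMs, and their part was not tested.

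**Figure D2:**
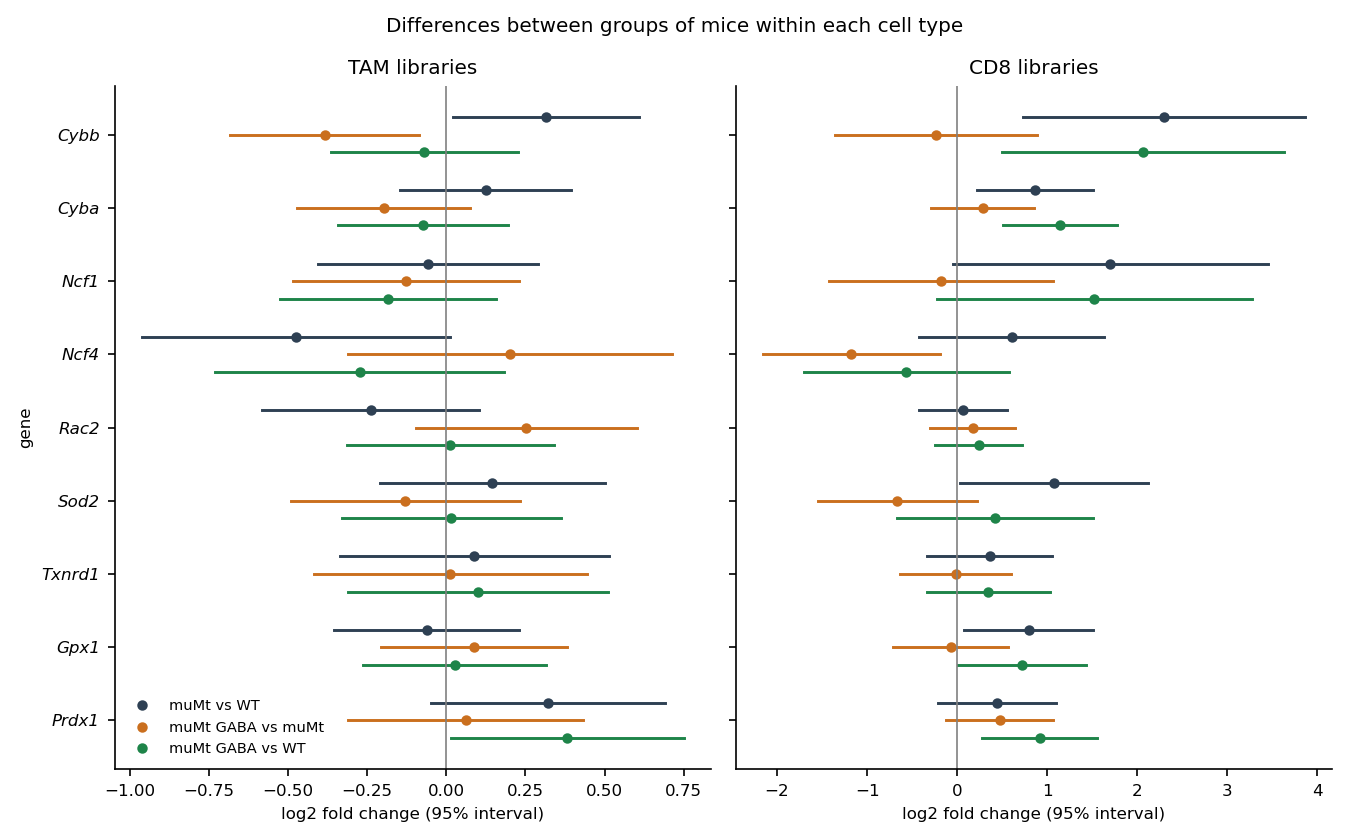
Log2 fold changes of the 9 genes with 95% intervals from the edgeR fit, for the comparisons between groups of mice within TAMs and within CD8 T cells (6 libraries per group). Intervals in CD8 T cells were wider than in TAMs, with *Cybb* between *muMt*-/- and WT mice at 2.30 (standard error 0.77) in CD8 T cells and 0.31 (0.15) in TAMs.

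Turning to mice without mature B cells, in CD8 T cell libraries *Cybb* and *Ncf1* had the largest log2 fold changes between *muMt*-/- and WT mice, but no member passed the adjusted test. The values of all 9 members were positive with TMM, as were those of 4113 of the 6663 genes tested, and 8 were positive with DESeq2 size factors, where *Rac2* was at −0.03. These 2 genes rest on few molecules, and markers of macrophages were higher in the same libraries. Called members numbered 0 of 9 by the edgeR quasi-likelihood test with Benjamini-Hochberg adjustment, against 0.0% (0) of the 6663 genes tested. At unadjusted p under 0.05 edgeR held 4 members, *Cybb*, *Cyba*, *Gpx1* and *Sod2*, against 6.08% (405) of genes, and with depth as a covariate 1, *Cybb*. With 1 library left out the count of 4 ranged from 2, without WT replicate 2 or *muMt*-/- replicate 1, to 6, without WT replicate 5. The DESeq2 Wald test called 0 members and 0 genes with adjustment, and 2 members beside 222 of 6663 genes without.

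*Cybb* stood at 0, 0.376 and 11.4 in CD8 T cells of WT mice and at 2.24, 6.40 and 35.4 in *muMt*-/- mice. In molecules, replicates 1 to 6 of *muMt*-/- mice held 35, 8, 9, 2, 29 and 3, against 12 in all 6 WT libraries together. All 6 *muMt*-/- libraries lay above the WT median, 2 of them above every WT library, and the groups overlapped through WT replicate 5. The log2 fold change of *Cybb* was 2.30 with a 95% interval from 0.73 to 3.86 (unadjusted p = 0.0051, edgeR quasi-likelihood Benjamini-Hochberg adjusted p = 0.487). Without WT replicate 5 it was 4.35 (edgeR quasi-likelihood Benjamini-Hochberg adjusted p = 0.0645). With no filter on low numbers the *Cybb* value of 2.32 was called (edgeR quasi-likelihood Benjamini-Hochberg adjusted p = 5.4e-05), beside 72 of 13109 genes.

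*Cyba* stood at 2.40, 14.3 and 22.9 in WT mice and at 16.8, 20.1 and 44.5 in *muMt*-/- mice. All 6 libraries of *muMt*-/- mice lay above the WT median and 2 above every WT library. The log2 fold change of *Cyba* was 0.86 (standard error 0.32, unadjusted p = 0.0102, edgeR quasi-likelihood Benjamini-Hochberg adjusted p = 0.637). *Ncf1* had 20 molecules in the 6 libraries of *muMt*-/- mice, 10 of them in replicate 1, and 4 in WT mice, for a log2 fold change of 1.70 (standard error 0.86, unadjusted p = 0.0564).

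*Gpx1* and *Sod2* also leaned upward. *Gpx1* stood at 7.21, 13.0 and 14.9 in WT mice and at 8.17, 14.8 and 35.4 in *muMt*-/- mice, with 3 libraries above every WT library and a log2 fold change of 0.79 (standard error 0.35, unadjusted p = 0.031, edgeR quasi-likelihood Benjamini-Hochberg adjusted p = 0.749). *Sod2* spread from 0.833 to 15.2 in *muMt*-/- mice around and beyond its WT range of 1.5 to 5.72, for a log2 fold change of 1.08 (standard error 0.52, unadjusted p = 0.043, edgeR quasi-likelihood Benjamini-Hochberg adjusted p = 0.781). The smaller differences were 0.61 for *Ncf4*, 0.44 for *Prdx1*, 0.36 for *Txnrd1* and 0.07 for *Rac2*. Over the 9 members the median was 0.79, beside 0.15 over all genes tested.

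*Rac2* differed little between the 3 groups of CD8 T cells. It stood at 30.9, 38.6 and 61.9 in WT mice, 25.3, 36.8 and 60.6 in *muMt*-/- mice, and 33.0, 49.0 and 54.0 with GABA. Its 3 groups overlapped almost fully, and its log2 fold changes with TMM were 0.07 (standard error 0.24) between *muMt*-/- and WT mice and 0.17 (0.23) between GABA-treated and untreated *muMt*-/- mice. The direction of the first depends on the scaling, since it was −0.03 with the DESeq2 size factors that also scale the values above, where the *muMt*-/- median lay below the WT median. *Txnrd1* stood at 5.16, 7.17 and 16.01 in WT mice, at 5.94, 9.63 and 16.4 in *muMt*-/- mice and at 6.25, 8.51 and 15.5 with GABA, again with overlap of all 3 groups.

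In WT and *muMt*-/- mice, macrophage markers were highest in the CD8 T cell library that also had the most *Cybb*, though none of those markers was called. With GABA, *Cybb* was highest in replicate 1 and these markers in replicate 3. Summed over 18 markers they stood at 2.78, 5.17 and 16.4 per 10000 in WT mice (6.77 ± 5.01), at 10.4, 14.2 and 55.4 in *muMt*-/- mice (22.0 ± 17.4) and at 6.67, 20.2 and 38.1 with GABA (21.4 ± 13.7), with *Ctsd* the most abundant each time. The highest libraries were WT replicate 5 (16.4), replicates 1 (55.4) and 5 (27.0) of *muMt*-/- mice, and replicates 3 (38.1) and 1 (36.1) with GABA. T cell markers stood lower than these sums, at 20.3, in replicate 1 of *muMt*-/- mice, and likewise in replicates 1 (23.2) and 3 (33.5) with GABA. All 18 markers were detected in *muMt*-/- and GABA-treated mice, against 15 in WT mice, and 12 of the 15 tested had unadjusted p under 0.05 between *muMt*-/- and WT mice, with a median log2 fold change of 1.87.

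With the summed macrophage marker level as a covariate, the differences between *muMt*-/- and WT mice in CD8 T cells were smaller for 5 members, changed sign for 3 and grew for *Rac2*. *Cybb* then stood at 0.17, *Cyba* at 0.28, *Ncf1* at 0.19, *Ncf4* at 0.09 and *Sod2* at 0.55. Turned in sign were *Prdx1* at −0.31, *Txnrd1* at −0.19 and *Gpx1* at −0.18, while *Rac2* went from 0.07 to 0.55 (unadjusted p = 0.033). Depth moved as well, since the WT group had the lowest median depth of the CD8 T cell libraries, and with depth as a covariate *Cybb* stood at 1.87 (unadjusted p = 0.0447), *Cyba* at 0.68, *Gpx1* at 0.59 and *Sod2* at 1.08. What part macrophage RNA or depth has in the values was not tested beyond these covariates.

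Between GABA-treated and untreated *muMt*-/- mice no member changed in CD8 T cells by the adjusted test, and *Ncf4* showed the largest difference. The edgeR quasi-likelihood test with Benjamini-Hochberg adjustment called 0 of 9 members, against 0.0% (0) of 6663 genes. At unadjusted p under 0.05 there was 1 member, against 3.69% (246) of genes. DESeq2 gave 0 members and 0 genes with adjustment, and 1 member beside 133 of 6663 genes without. *Ncf4* stood at 2.24, 4.13 and 11.1 in untreated *muMt*-/- mice and at 1.27, 2.35 and 2.74 with GABA, all 6 below the untreated median, on 2 to 4 molecules per GABA library. Its log2 fold change was −1.17 (standard error 0.48, unadjusted p = 0.0203, edgeR quasi-likelihood Benjamini-Hochberg adjusted p = 0.9997). The remaining members lay between −0.66 for *Sod2* and 0.47 for *Prdx1*, with *Cybb* at −0.23 and *Cyba* at 0.28.

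GABA-treated *muMt*-/- mice compared with WT mice had 0 of 9 members called (edgeR quasi-likelihood, Benjamini-Hochberg), against 0.0% (0) of 6663 genes. At unadjusted p under 0.05 there were 4 members, against 6.41% (427) of genes, and 0 with depth as a covariate. DESeq2 gave 0 members with adjustment, beside 1 of 6663 genes, and 2 without, beside 222 genes. *Cyba* had the smallest p, with values of 19.2, 26.8 and 48.3 under GABA, all 6 above the WT median of 14.3 and 4 above every WT library. Its log2 fold change was 1.14 with a 95% interval from 0.51 to 1.77 (unadjusted p = 0.0008, edgeR quasi-likelihood Benjamini-Hochberg adjusted p = 0.573). *Cybb* stood at 0, 11.5 and 24.2 with GABA, on 38, 13, 18, 3, 0 and 18 molecules in replicates 1 to 6, and its log2 fold change was 2.07 (standard error 0.77, unadjusted p = 0.0113, edgeR quasi-likelihood Benjamini-Hochberg adjusted p = 0.593). With no filter on low numbers *Cyba* (1.22, edgeR quasi-likelihood Benjamini-Hochberg adjusted p = 0.0063) and *Cybb* (2.14, adjusted p = 0.000481) were called. That fit called 64 of 13109 genes.

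*Prdx1* and *Gpx1* were the antioxidant genes furthest from WT under GABA. *Prdx1* stood at 17.2, 24.8 and 57.2 with GABA and at 4.42, 19.99 and 25.2 in WT mice, 3 GABA libraries lying above every WT library. The *Prdx1* log2 fold change was 0.92 (standard error 0.32, unadjusted p = 0.0063, edgeR quasi-likelihood Benjamini-Hochberg adjusted p = 0.573). *Gpx1* stood at 9.37, 17.3 and 29.2, a log2 fold change of 0.72 (standard error 0.35, unadjusted p = 0.047, edgeR quasi-likelihood Benjamini-Hochberg adjusted p = 0.778). The others were *Ncf1* at 1.52, *Sod2* at 0.42, *Txnrd1* at 0.35, *Rac2* at 0.24 and *Ncf4* at −0.57.

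The all-gene median of that comparison was 0.17 with TMM and 0.06 with DESeq2 size factors. Relative to it, with the 2 scalings in turn, *Cybb* was at 1.90 and 1.91, *Ncf1* at 1.35 and 1.37, and *Cyba* at 0.97 and 0.98. *Prdx1* was at 0.74 and 0.75, *Gpx1* at 0.55 and 0.56, and *Sod2* at 0.25 and 0.25. *Txnrd1* was at 0.18 and 0.17, *Rac2* at 0.07 and 0.05, and *Ncf4* at −0.74 and −0.73. Given the macrophage marker covariate, *Cybb* stood at −0.0051, *Cyba* at 0.58, *Prdx1* at 0.16, *Gpx1* at −0.21 and *Rac2* at 0.72 (unadjusted p = 0.0052).

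Set against TAMs of the same group of mice, *Cybb* and *Ncf1* in CD8 T cell libraries had shares close to those of the macrophage markers. *Cybb* in CD8 T cells was 3.96%, 17.5% and 18.8% of its TAM level in WT, *muMt*-/- and GABA-treated mice, and *Ncf1* was 4.47%, 20% and 19.6%. The 2 WT values rest mostly on CD8 T cell replicate 5, which held 10 of 12 *Cybb* and 3 of 4 *Ncf1* molecules. The median over the 18 macrophage markers was 2.62%, 10.8% and 15.5%, with *Ctsd* highest at 50.5%, 72.8% and 79.7%. *Cyba* stood higher, at 27.8%, 45.7% and 62.1%, and so did *Gpx1*, at 26.3%, 46.3% and 39.7%. *Prdx1* was at 39.3%, 41.6% and 53.3%, *Sod2* at 39.8%, 72% and 47.5%, and *Ncf4* at 42.7%, 96.4% and 36.4%. *Rac2* and *Txnrd1* exceeded their TAM levels in every group, at 334%, 394% and 359.7% and at 115%, 128% and 122%. These shares are descriptions, and macrophage RNA and transcription in CD8 T cells cannot be told apart by them.

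**Figure D3:**
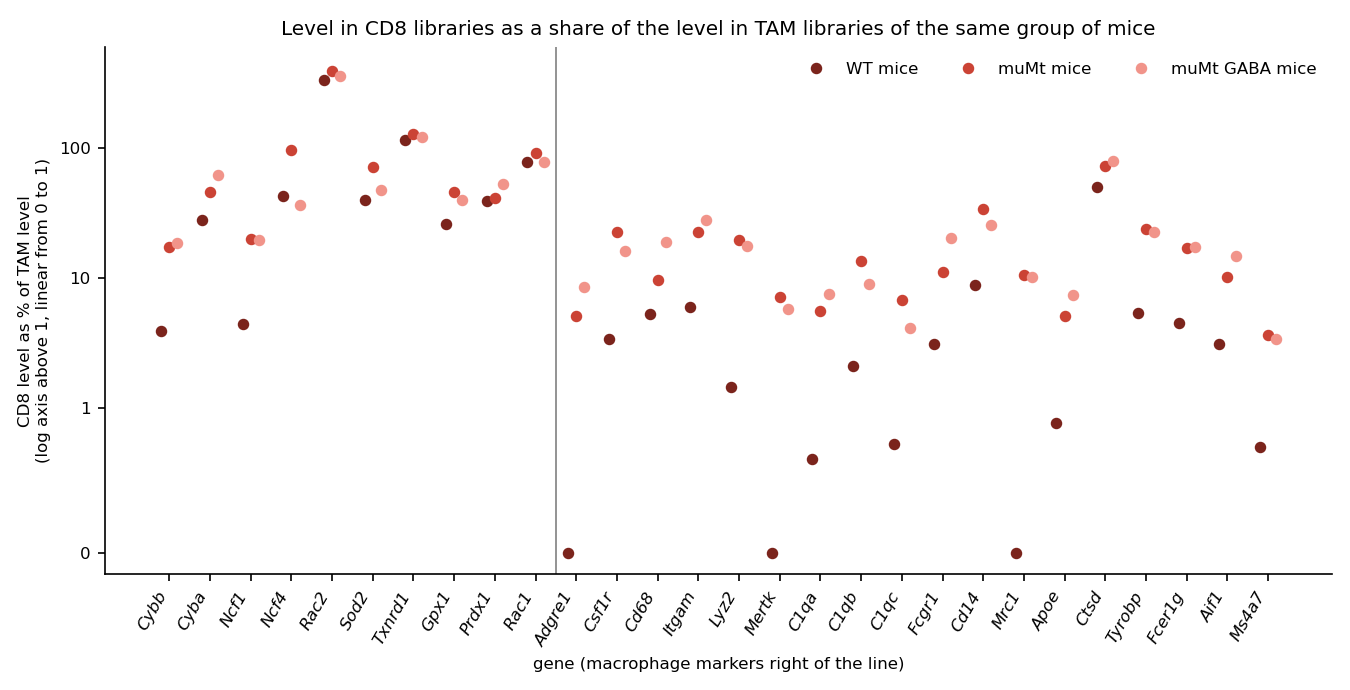
Mean level of each gene in CD8 T cell libraries as a percent of its mean level in TAM libraries of the same group of mice, with the 9 members, *Rac1* and macrophage markers as points for WT, *muMt*-/- and GABA-treated *muMt*-/- mice. *Cybb* (3.96% in WT mice) and *Ncf1* (4.47%) lay among the macrophage markers, whose median was 2.62%, and *Rac2* (334%) lay far above them. The WT values of *Cybb* and *Ncf1* rest mostly on CD8 T cell replicate 5.

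The difference between *muMt*-/- and WT mice was lower in TAMs than in CD8 T cells for all 9 members with TMM, and for 8 with DESeq2 size factors, where *Prdx1* was at 0.06. None passed the adjusted test. For this difference of differences the edgeR quasi-likelihood test with Benjamini-Hochberg adjustment called 0 members, against 0.0118% (1) of 8477 genes. An unadjusted p under 0.05 was reached by 5 members, against 10% (850) of genes. DESeq2 gave 0 members and 0 genes with adjustment, and 2 members beside 600 of 8477 genes without. That count of 5 was 0 without replicate 1 of the CD8 T cells of *muMt*-/- mice, the library with the highest macrophage markers, and 1 among genes with a mean above 5. *Cybb* stood at −2.03 (standard error 0.75, unadjusted p = 0.0092, edgeR quasi-likelihood Benjamini-Hochberg adjusted p = 0.341) and *Ncf1* at −1.83 (0.81, 0.0283, adjusted p = 0.437). *Ncf4* at −1.11, *Gpx1* at −0.88 and *Cyba* at −0.75 completed the 5. With no filter on low numbers *Cybb* was called at −2.09 (edgeR quasi-likelihood Benjamini-Hochberg adjusted p = 0.0031), beside 79 of 15593 genes.

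The median over all genes leaned the same way, at −0.294 under TMM and −0.107 under DESeq2 size factors. Under TMM 2894 of 8477 genes were positive, and the median of the members was −0.88. Relative to the all-gene median, with the 2 scalings in turn, *Cybb* was at −1.74 and −1.73, *Ncf1* at −1.54 and −1.54, and *Ncf4* at −0.82 and −0.82. *Gpx1* was at −0.59 and −0.57, *Sod2* at −0.68 and −0.68, and *Cyba* at −0.46 and −0.44. *Prdx1* was at 0.15 and 0.17, *Rac2* at −0.04 and −0.02, and *Txnrd1* at −0.02 and −0.00. The macrophage markers had a median of −1.98 in the same test, with 12 of 18 at unadjusted p under 0.05 and 0 called.

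The response to GABA was compared between the cell types in the same way. The edgeR quasi-likelihood test with Benjamini-Hochberg adjustment called 0 of 9 members, against 0.0% (0) of 8477 genes. At unadjusted p under 0.05 there was 1 member, against 4.52% (383) of genes. DESeq2 gave 0 members and 0 genes with adjustment, and 2 members beside 361 of 8477 genes without. *Ncf4* stood at 1.35 (standard error 0.54, unadjusted p = 0.0161, edgeR quasi-likelihood Benjamini-Hochberg adjusted p = 0.994), its values leaning up in TAMs (0.20) and down in CD8 T cells (−1.17). The other 8 members lay between −0.55 for *Cyba* and 0.48 for *Sod2*.

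Other genes of the pathway were compared between TAMs and CD8 T cells of WT mice in the same way. Of 12 tested genes among the other oxidase subunits and regulators, 8 were higher in TAMs and 0 lower, beside 16.7% and 6.0% of all genes, with a median log2 fold change of 0.93 beside 0.355. *Rac1*, the more widely expressed Rac GTPase, had a log2 fold change of 0.69 (standard error 0.20, edgeR quasi-likelihood Benjamini-Hochberg adjusted p = 0.0068). *Rac1* was thus higher in TAMs while *Rac2* was lower. In TAMs of WT mice the mean level was 4.90 per 10000 for *Rac1* and 2.21 for *Rac2*. In CD8 T cells of WT mice the means were 3.82 and 7.40.

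The counts for the antioxidant lists are read against the same 16.7% higher and 6.0% lower among all genes, and differences between lists were not tested. For NRF2 (encoded by *Nfe2l2*) and NADPH supply, 12 of 17 were higher in TAMs and 0 lower (median 1.62), among them *Taldo1* at 1.62 (standard error 0.30) and *Nfe2l2* at 1.92 (0.41). In the thioredoxin and peroxiredoxin system 9 of 17 were higher and 0 lower (median 0.84), with *Prdx5* at 3.07 (0.37) and *Txn1* at 0.98 (0.21). The glutathione system had 2 of 12 higher, which is the share among all genes, and 0 lower (median 0.50), with *Glrx* at 1.80 (0.33) called and *Gpx4* at 0.74 (0.32) not called. Neither *Sod1* (0.05, standard error 0.24) nor *Cat* (1.07, standard error 0.58) was called.

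In TAMs of *muMt*-/- mice 3 other genes of these lists changed against WT mice, 1 of 18 tested for NRF2 and NADPH supply and 2 of 17 for the glutathione system, beside 2.06% of all genes. None was called in the other comparisons between groups of mice, where at most 0.0739% of all genes were. *Bach1*, a repressor of NRF2 target genes, rose from 17.4, 20.9 and 24.5 in WT mice to 28.6, 44.2 and 87.9, without overlap (log2 fold change 1.12, standard error 0.23, edgeR quasi-likelihood Benjamini-Hochberg adjusted p = 0.0047). *Gsr*, which encodes the enzyme that regenerates reduced glutathione, rose from 2.77, 6.62 and 8.68 to 10.9, 12.9 and 18.7 (1.11, standard error 0.30, edgeR quasi-likelihood Benjamini-Hochberg adjusted p = 0.0379). *Glrx5*, which encodes a mitochondrial glutaredoxin of iron-sulfur cluster assembly, fell from 6.46, 8.36 and 11.1 to 1.88, 2.95 and 4.98 (−1.33, standard error 0.35, edgeR quasi-likelihood Benjamini-Hochberg adjusted p = 0.0324). For all 3 genes the 2 groups were fully apart. They were named because they were called in this comparison, so that separation adds no further support. The share of all genes so separated was not counted.

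These 3 calls did not hold under every setting. With depth as a covariate the edgeR quasi-likelihood Benjamini-Hochberg adjusted p was 0.304 for *Bach1*, 0.300 for *Gsr* and 0.324 for *Glrx5*, and the DESeq2 Wald test gave adjusted p = 0.0501 for *Gsr* and 0.0977 for *Glrx5*. Leaving out single libraries also ended the call of *Gsr* in 8 cases (edgeR quasi-likelihood Benjamini-Hochberg adjusted p = 0.0526 to 0.105) and of *Glrx5* in 7 (0.0572 to 0.0854).

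Few genes of the lists were called in that comparison, and the list of dismutases and catalase had the median furthest from that of all genes. That list holds only 3 tested genes, and its median is the value of *Sod1*. It leaves out the member *Sod2*, which stood at 0.15. Counts called higher and lower were 0 and 0 of 12 for other oxidase genes (median −0.11), 0 and 0 of 3 for dismutases and catalase (−0.62), and 1 and 1 of 17 for the glutathione system (0.10). They were 0 and 0 of 17 for the thioredoxin and peroxiredoxin system (0.08) and 1 and 0 of 18 for NRF2 and NADPH supply (0.07), beside −0.05 over all genes. *Sod1*, which encodes the cytosolic dismutase, came closest among the others, at −0.62 (standard error 0.18, edgeR quasi-likelihood Benjamini-Hochberg adjusted p = 0.0563) in *muMt*-/- mice and at 0.57 (0.18, adjusted p = 0.291) under GABA. *Rac1* stood at −0.21 and 0.18 in these 2 comparisons.

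Across the 18 TAM libraries, genes whose normalized values ran closely parallel to each member were found among 1590 genes with a mean above 20. *Cybb* ran with *Tgfbi* (r = 0.812), and *Cyba* ran closest to *Ms4a6d* (0.818) and *Itgb2* (0.809), all of them genes well known in macrophages. *Ncf1* ran closest to *Coro1a* (0.871) and *Nmt1* (0.742), *Ncf4* to *Zyx* (0.881) and *Sgpl1* (0.873), and *Rac2* to *Nono* (0.682) and *Bbip1* (0.659). *Prdx1* ran closest to *Txn1* (0.791), the thioredoxin gene, and to *Brip1os* (0.782). *Txnrd1* ran closest to *Gnb1* (0.852) and *Ndufb6* (0.721), *Gpx1* to *Emilin2* (0.847) and *Trem2* (0.814), and *Sod2* to *Snrpb2* (0.751) and *Klf13* (0.724). No member was among the 2 nearest genes of another, and the libraries share groups and depth, so these r values are descriptions.

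In the mouse genome build GRCm38.p6 (mm10), the 9 genes lie on 8 chromosomes, and *Ncf4* and *Rac2* share chromosome 15. *Cybb* spans chrX:9435252-9487766 on the minus strand, *Cyba* chr8:122424771-122432940 (minus) and *Ncf1* chr5:134220053-134229628 (minus). *Ncf4* (chr15:78244164-78262582) and *Rac2* (chr15:78559169-78572783) are 296586 bases apart. *Sod2* spans chr17:13007839-13018119, *Txnrd1* chr10:82833951-82897724, *Gpx1* chr9:108339080-108340342 and *Prdx1* chr4:116685599-116700000, all on the plus strand. *Txnrd1* overlaps *Gm38560* and *Eid3*, which together had 16 molecules in all libraries. *Cybb*, *Ncf1* and *Prdx1* overlap *Gm33784*, *LOC115490142* and *AV051173* in turn, with 0 molecules counted. *Prdx1* has a pseudogene, and since the sources do not give the treatment of reads with several matches, its counts may include or lack such reads.

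Promoter windows from RefSeq (build GRCm38.p6, 250 bases before to 50 after the start) matched 7 of the 9 members, the other 2 being *Ncf4* and *Rac2*. They were searched on both strands for the PU box GAGGAA, the core that the myeloid factor PU.1 is known to bind, and for the antioxidant response element core TGACNNNGC, known as the binding site of NRF2. The PU box was found in 28.3% of all 32851 windows, or in at least 1 window of 31.3% of the 27025 genes, and of 4 of 7 members (*Cybb*, *Prdx1*, *Sod2* and *Txnrd1*). The antioxidant core was found in 12.4% of all windows, or in 14.0% of the genes, and in 2 of 7 members (*Prdx1* and *Txnrd1*). A match is a description of letters. The stretch for *Cybb* (chrX:9469295-9469375, minus strand, inside the annotated span of the gene) is shown because *Cybb* separated the cell types most, and those of *Prdx1* (chr4:116685406-116685534, plus strand) and *Txnrd1* (chr10:82859054-82859182, plus strand) because they alone held the antioxidant core. Each is written from 5′ to 3′ along the strand of the gene, and capitals mark the motif, which in all 3 cases reads on the opposite strand.
Cybb: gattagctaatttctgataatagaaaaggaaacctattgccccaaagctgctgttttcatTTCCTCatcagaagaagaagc
Prdx1: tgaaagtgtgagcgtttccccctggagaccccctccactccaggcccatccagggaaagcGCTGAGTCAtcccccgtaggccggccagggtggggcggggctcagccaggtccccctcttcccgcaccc
Txnrd1: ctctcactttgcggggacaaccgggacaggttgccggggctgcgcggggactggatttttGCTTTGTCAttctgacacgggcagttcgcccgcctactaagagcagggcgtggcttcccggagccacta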

How the data were processed

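The input was the deposited table of molecule counts per gene, made by the authors with STAR against mm10 according to the submitters' processing notes. The handling of strand and of reads with several matches is not given in the sources. Genes with a mean DESeq2-normalized number above 1 were tested in 18 libraries per cell type with the edgeR 4.0.16 quasi-likelihood F-test after TMM scaling, and p-values were adjusted by Benjamini-Hochberg over all tested genes, with 0.05 as the threshold. All 36 libraries were fitted together for the comparison of cell types and of their responses. DESeq2 1.42.0 and limma 3.58.1 (R 4.3.3), and numpy 2.4.6, pandas 2.3.3 and matplotlib 3.10.9 (Python 3.11.15) served for the rest. Printed intervals are 95% intervals. Besides the members, the 2 genes with most molecules in TAMs of each antioxidant list, *Rac1* and list genes called between groups of mice were named. Alternatives were DESeq2 size factors, the DESeq2 Wald test, other filters on low numbers, 12 libraries, a replicate block, a robust fit, depth or macrophage marker covariates, and leaving out each library. The members and lists were chosen with earlier results of these data known.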

Additional observations from a re-analysis of the deposited data

Results flagged for a closer look

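Each of the 9 genes was looked at in each group of 6 libraries for a library far from the other 5, and 4 such libraries were found in 54 groups; the rule (Dixon's ratio) is set to find about 1 group in 20 by chance among normally distributed values, which counts of a few molecules, such as those of *Ncf1*, are not. *Cybb* in CD8 T cells of WT replicate 5 stood at 11.4 normalized molecules, with the nearest library at 1.83. *Ncf1* in the same library stood at 3.43, with the nearest at 0.751. *Ncf1* in CD8 T cells of *muMt*-/- replicate 1 stood at 10.1, with the nearest at 3.27. *Txnrd1* in TAMs of *muMt*-/- replicate 6 stood at 46.6, with the nearest at 25.8. Both of these CD8 T cell libraries also had the highest summed macrophage markers in their groups, at 16.4 per 10000 for WT replicate 5 and 55.4 for *muMt*-/- replicate 1. The causes were not tested.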

How the results depend on the processing

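Members called at adjusted p under 0.05 stayed at 0 of 9 in the 3 TAM comparisons and in GABA-treated against untreated CD8 T cells under every alternative that adjusted p, and leaving out any library kept 0 in all comparisons between mice. Without a filter on low numbers, which adds weakly detected genes, 1 member was called for *muMt*-/- against WT CD8 T cells, beside 72 of 13109 genes. In the same setting 2 members were called for GABA-treated against WT CD8 T cells, beside 64 genes. The difference between cell types in the response to B cell loss then had 1 member called, beside 79 of 15593 genes. By unadjusted DESeq2 Wald p, member counts were 1, 1 and 1 in TAMs, 2, 1 and 2 in CD8 T cells, and 2 and 2 for the differences between cell types. Over all genes they were 1111, 580 and 440 of 9469, then 222, 133 and 222 of 6663, and 600 and 361 of 8477. TAMs against CD8 T cells of WT mice kept 8 members, or 7 without CD8 T cell replicate 6 (*Ncf4*).

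With the macrophage marker covariate, *Gpx1* reversed in *muMt*-/- against WT CD8 T cells (−0.18), and *Cybb* (−0.0051) and *Gpx1* (−0.21) reversed in GABA-treated against WT CD8 T cells, each from an unadjusted p under 0.05. *Prdx1* (−0.31) and *Txnrd1* (−0.19) in the first, and *Txnrd1* (−0.21) and *Sod2* (−0.09) in the second, also changed sign, with no unadjusted p under 0.05 on either side. With DESeq2 size factors *Prdx1* turned to 0.06 in the difference between cell types in the response to B cell loss, and *Rac2* to −0.03 in *muMt*-/- against WT CD8 T cells. Of 1944 values of named genes under alternatives, 110 changed sign, 3 of them with unadjusted p under 0.05 before or after. The causes were not tested.

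Genes called in TAMs of *muMt*-/- against WT mice ranged from 10 (depth covariate) to 343 (no filter), and from 70 to 230 with 1 library left out. In GABA-treated against untreated TAMs they went from 2 to 39 without GABA replicate 1. Replicate numbers were shared by groups and were not used as pairs in the main fits. The correlations that follow cannot exclude that TAM and CD8 T cell libraries of the same number share a mouse. Same-number correlations were −0.117 to 0.0896 within TAMs and −0.18 to 0.281 within CD8 T cells. There at most 1 of 6 libraries correlated best with its own number. Between the cell types the correlations were −0.0259 to 0.211, with at most 2 of 6. The replicate block moved the count for TAMs of *muMt*-/- against WT mice from 195 to 204 and no member call. Depth limits the CD8 T cell results, where *Cybb* and *Ncf1* rest on 12 and 4 molecules in WT mice, and with a mean above 5 only 6 of 9 members were tested there.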
